A study of Bos taurus with 8 samples.

Results

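The genes described here are 41 components of the protein folding machinery of the endoplasmic reticulum (ER) and of the unfolded protein response (UPR), the signalling that adjusts this machinery. They were taken by gene name from the scanner files of 8 arrays, with the brightest probe standing for each gene. A probe named for the gene was found for 39 of them (ATF6 and WFS1 had no probe of that name), and 38 were tested among 12740 genes, since the probe of ERN1 was not well above background on any array. All arrays carried RNA of primary bovine mammary epithelial cells (BMECs), obtained from mammary gland tissue of a lactating Holstein cow and used at the fifth passage. In 3 samples the cells received the EEF1D-1357 shRNA and in 3 the EEF1D-1893 shRNA, hairpin RNAs directed against EEF1D, which encodes a subunit of the translation elongation factor 1 complex. The 2 control samples are labelled as having no shRNA, so cells with a hairpin of another target were not part of the comparison. Separate cultures for the replicates are not mentioned in the labels, and all cells derive from tissue of 1 animal, so every p-value below measures only the spread between these arrays. The design asks which transcripts differ once EEF1D is knocked down, with either hairpin and between the hairpins.

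The ER folds membrane and secreted proteins, milk proteins among them, and unfolded protein in its lumen is sensed by 3 membrane proteins. IRE1, encoded by ERN1, splices the XBP1 transcript so that an active transcription factor is made; ATF6 is cut by Golgi proteases to free a transcription factor; and PERK, encoded by EIF2AK3, phosphorylates the initiation factor eIF2α, which lowers translation and favours ATF4. Their targets include the chaperone HSPA5 (BiP), disulfide isomerases, and the components of ER-associated degradation, which return misfolded proteins to the cytosol for the proteasome.

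The probes are DNA strands of 60 bases attached to the array, and a gene's value is the signal at those bases alone. A stretch of 30 bases is given for those on which the comparisons below turn, 5′ to 3′, with the probe's position on the assembly HGSC Btau_3.1 as the array annotation has it. The first pair shows why the 2 brightest XBP1 probes are not separate measurements: capitals mark the bases found in both printed stretches, and the whole probes share 32 bases. The files used here do not say whether these positions are coding or untranslated.
XBP1, brightest probe, bases 21 to 50 (chrUn.004.428:54414-54473, plus strand): acttttggACGGTGCTTTCTCCATTTATTT
XBP1, next probe, bases 1 to 30 (chrUn.004.428:54442-54501, plus strand): ACGGTGCTTTCTCCATTTATTTaaaactac
DNAJB9, only probe, bases 1 to 30 (chr4:61879654-61879713, minus strand): tgtgtgtgtgtggtttttcttctttgcact
SYVN1, brightest probe, bases 1 to 30 (chr29:45147780-45147839, minus strand): ccccttggttttatgttacaagagttgctg
EDEM3, brightest probe, bases 1 to 30 (chr16:63432251-63432310, minus strand): atgtctgtactaacaggtgctgtaacacta
HSPA5, brightest probe, bases 1 to 30 (chr11:99543141-99543200, minus strand): atttaacaattgggtcatgtgtatctggtg
EDEM2, brightest probe, bases 1 to 30 (chr13:64976113-64976172, minus strand): tttacgtcgaagctggcattactgggacag

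Levels are log2 spot intensities after each array's 75th percentile was subtracted, so a level of 0 is the 75th percentile of the array. That percentile lay between 1265 and 2078 intensity units, lowest on control replicate 1, and 60.6% to 71.5% of probes were well above background. Control replicate 1 also had the lowest median correlation with the other arrays, 0.968 against 0.976 to 0.981. The EEF1D-1357 hairpin and control replicate 2 shared slide 1, whereas the EEF1D-1893 hairpin and control replicate 1 shared slide 2. EEF1D itself was at 5.98, 5.87 and 5.11 with EEF1D-1357, at 6.001, 5.747 and 5.776 with EEF1D-1893 and at 7.13 and 6.15 in the controls. All 6 shRNA arrays lay below both controls, by 0.89 on average (SE 0.32, limma adjusted p = 0.245). The keratins KRT8, KRT18, KRT19, KRT5 and KRT14 and the epithelial adhesion genes EPCAM and CDH1 were above background on all 8 arrays, as was the milk protein gene CSN2. LALBA was above background on 0 arrays and ELF5, a regulator of secretory cells, on 1. In bulk RNA, fewer cells of a type cannot be told apart from less RNA per cell.

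Against the controls, genes of ER folding and the UPR lay mostly higher in EEF1D shRNA cells, with the smallest p-values at the IRE1 pair XBP1 and DNAJB9, but none passed the threshold of an adjusted p under 0.05. Over both hairpins, 32 of 38 were higher, with a median log2 difference of 0.19 and a range of -0.18 to 0.80; over all genes tested, 42.8% were higher and the median was -0.07. All 6 shRNA arrays lay above both controls for 9 of the 38, against 7.72% of all genes, and below both for 0, against 9.03%. Those 9 were XBP1, DNAJB9, DNAJC3, DNAJB11, MANF, ERO1L, SYVN1, DERL2 and EDEM3. The number with an unadjusted p under 0.05 was 8 higher, where the whole table had 7.34%, and 0 lower, where it had 9.46%. No gene of the 12740 was called (0%), and the smallest adjusted p among the 38 was 0.147, for DNAJB9.

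The same controls serve both hairpins, so the hairpins' values are given side by side and not as repeats of each other. With EEF1D-1357, 29 of 38 genes were higher, against 41.5% of all genes, with a median difference of 0.21 (all genes -0.09). Every array of this hairpin was above both controls for 14 (12.2% of all genes) and below both for 0 (18.3%), and 6 genes were higher at an unadjusted p under 0.05 (6.2%) and 0 lower (9.86%). With EEF1D-1893, 30 of 38 were higher, against 46.9% of all genes, with a median difference of 0.27 (all genes -0.03). Every array was above both controls for 16 (13.7%) and below both for 0 (14.4%), and 10 were higher at an unadjusted p under 0.05 (6.79%) and 0 lower (7.18%). Scaling by each array's median in place of the 75th percentile moved the share of all genes that were higher with EEF1D-1357 from 41.5% to 52.6%, and their median from -0.09 to 0.03. The folding and UPR genes moved with it, to 34 of 38 higher and a median of 0.32.

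**Figure D1:**
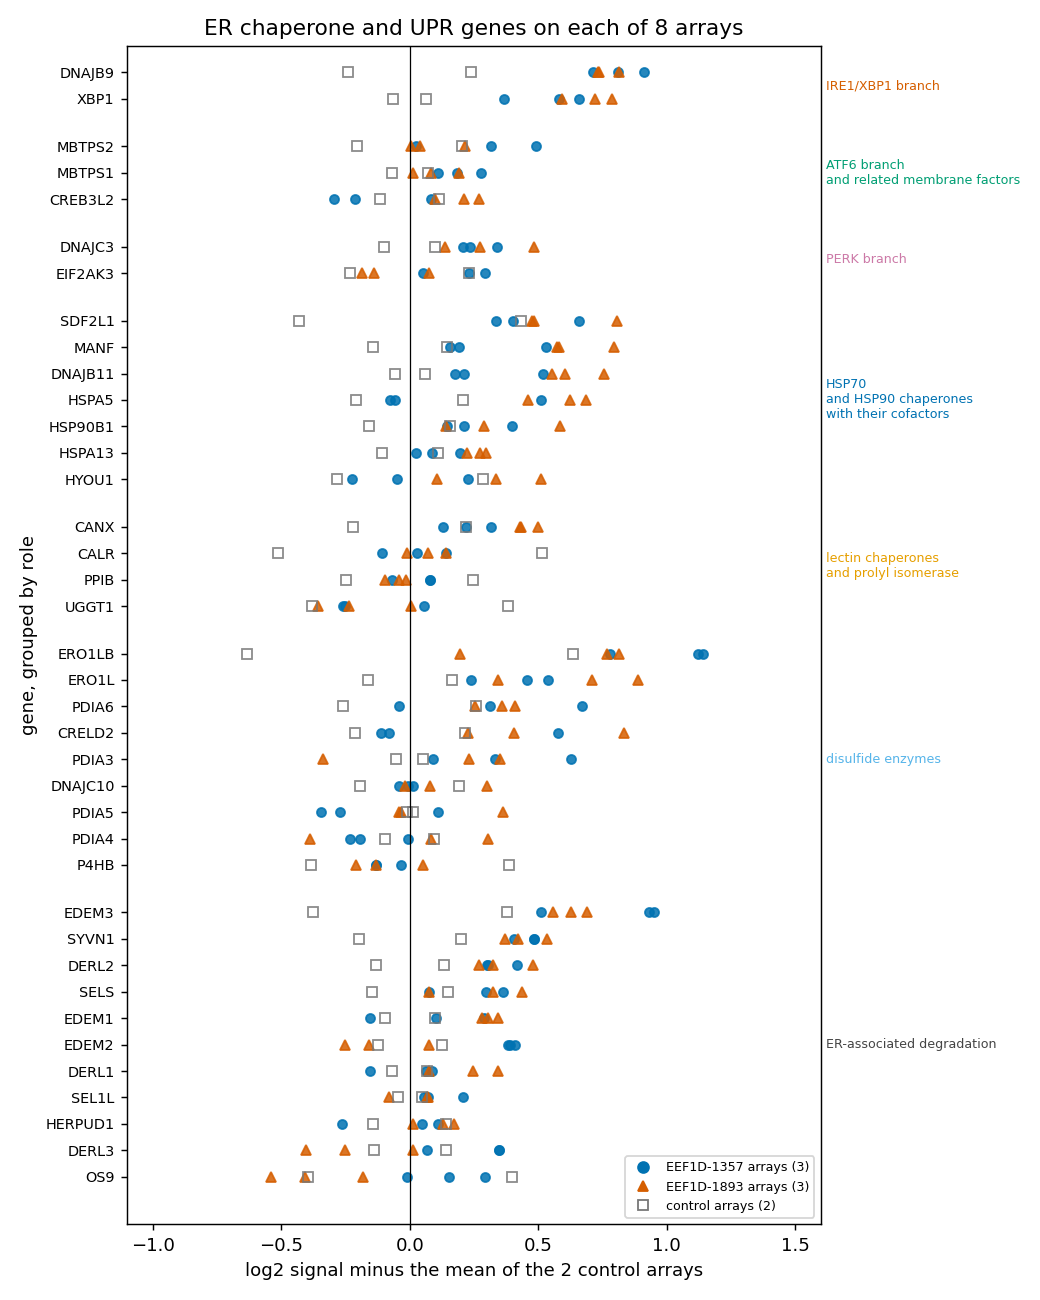
Level of each of 38 genes on each of 8 arrays, as log2 signal minus the mean of the 2 control arrays (horizontal axis), with genes in rows by role. Filled circles are EEF1D-1357 arrays, filled triangles EEF1D-1893 arrays and open squares controls; for DNAJB9 and XBP1 all filled symbols lie to the right of both squares, whereas for CALR, P4HB and PPIB all filled symbols lie between the squares.

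The spread between replicates was widest in the controls. Between control replicates 1 and 2 the SD of the differences over the 38 genes was 0.48, whereas between arrays with the same hairpin it was 0.14 to 0.30. Over all genes the same SDs were 0.84 and 0.50 to 0.73. Control replicate 1 was above control replicate 2 for 25 of the 38 genes, near the 63.3% seen over all genes, with a median difference of 0.21 (all genes 0.24). The widest gaps were for ERO1LB at -1.27, CALR at 1.03, SDF2L1 at 0.86, OS9 at 0.80, P4HB and UGGT1 at 0.77 and EDEM3 at -0.75.

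Of the IRE1 branch, XBP1 and DNAJB9 had the smallest p-values of the 38 genes, and ERN1 was not tested. The branches are represented by unlike genes, so their activities were not compared. XBP1 encodes the transcription factor that IRE1 activates by splicing; the probes used here give the transcript's level, and spliced and unspliced forms were not told apart. Its level was 4.22, 3.93 and 4.14 with EEF1D-1357, 4.16, 4.29 and 4.35 with EEF1D-1893, and 3.63 and 3.50 in the controls. The lowest shRNA array lay above the higher control. The mean difference was 0.62 (SE 0.13, limma adjusted p = 0.156), with 0.54 for EEF1D-1357 and 0.70 for EEF1D-1893. Against the control on the same slide it was 0.60 and 0.64. The remaining XBP1 probes were higher as well, by 0.45 at the probe that overlaps the brightest and by 0.69 at the one that does not.

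DNAJB9 (ERdj4), a cofactor of BiP that also binds the luminal side of IRE1 and is itself a target of XBP1, was at 1.47, 1.37 and 1.27 with EEF1D-1357, at 1.29, 1.29 and 1.37 with EEF1D-1893, and at 0.32 and 0.79 in the controls. All 6 shRNA arrays stood close together and above both controls. The difference was 0.79 (SE 0.16, limma adjusted p = 0.147). Its size rested on the control used: 0.55 without control replicate 1 and 1.03 without control replicate 2. Each of these fits leaves 1 control array, so the spread between controls is not measured and no p-value is given. When slide was added to the fit as a block, which compares each hairpin with the control on its own slide, 3 of the 38 genes were called higher over both hairpins (2.53% of all genes) and 0 lower (2.84%). They were DNAJB9 (adjusted p = 0.0317), XBP1 (0.0461) and SYVN1 (0.0484). The residual spread of that fit comes from the shRNA arrays alone, and the lone control of each slide is assumed to vary as they do.

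The measured factors of the ATF6 branch, 3 of 5 listed, were close to the controls. They are proteases and a relative of ATF6, which itself had no probe of that name, so the activity of ATF6 was not measured. MBTPS1, the Golgi protease that makes the first cut in ATF6, was at 2.54, 2.44 and 2.37 with EEF1D-1357, at 2.34, 2.46 and 2.28 with EEF1D-1893 and at 2.19 and 2.33 in the controls. The EEF1D-1357 arrays were just above both controls and the EEF1D-1893 arrays overlapped them, and the difference was 0.14 (SE 0.12). MBTPS2, which makes the next cut, differed by 0.18 (SE 0.18), and without control replicate 1 by -0.02. CREB3L2, a membrane-bound relative of ATF6, lay at 1.08, 0.79 and 0.71 with EEF1D-1357, at 1.21, 1.27 and 1.10 with EEF1D-1893 and at 1.12 and 0.89 in the controls. Its EEF1D-1357 arrays were all below its EEF1D-1893 arrays, while both overlapped the controls, and the difference over both hairpins was 0.03 (SE 0.15).

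For the PERK branch, the kinase gene EIF2AK3 was at 1.65, 1.47 and 1.71 with EEF1D-1357, at 1.28, 1.49 and 1.23 with EEF1D-1893 and at 1.18 and 1.65 in the controls. The controls spanned most of the shRNA arrays, and the difference was 0.05 (SE 0.17). Its dimmer probes were lower in shRNA cells, by 0.47 and 0.69 on the log2 scale, so that the mean over the gene's probes was -0.37 and the direction turned. DNAJC3 (P58IPK), a luminal cofactor of BiP known as an inhibitor of PERK, read 2.97, 3.00 and 3.105 with EEF1D-1357, 3.04, 2.90 and 3.25 with EEF1D-1893 and 2.87 and 2.67 in the controls. Every shRNA array was above both controls by a narrow margin, and the difference was 0.28 (SE 0.14, limma adjusted p = 0.354), or 0.18 without control replicate 2.

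All 7 BiP and GRP94 chaperones with their cofactors were higher over both hairpins, with a median difference of 0.36, and all 7 were above the control within each slide (22.2% of all genes). None was called, and without control replicate 2 the median was 0.14 and HYOU1 was lower, at -0.13, which left 6 of 7 higher. HSPA5, which encodes BiP, the HSP70 chaperone that holds nascent chains and the UPR sensors, was at 5.28, 5.26 and 5.85 with EEF1D-1357, at 5.80, 5.97 and 6.03 with EEF1D-1893 and at 5.55 and 5.13 in the controls. The EEF1D-1893 arrays were above both controls, whereas EEF1D-1357 replicates 1 and 2 lay between the controls. The differences were 0.59 (SE 0.23) for EEF1D-1893 and 0.13 (SE 0.23) for EEF1D-1357, and over both 0.36 (SE 0.21, limma adjusted p = 0.405). Over both it was 0.57 without control replicate 1 and 0.15 without control replicate 2, and for EEF1D-1357 it was -0.08 without control replicate 2 and -0.07 without EEF1D-1357 replicate 3.

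DNAJB11 (ERdj3), which delivers unfolded clients to BiP, was at 2.48, 2.44 and 2.79 with EEF1D-1357, at 2.82, 2.87 and 3.03 with EEF1D-1893 and at 2.21 and 2.33 in the controls. The groups did not overlap: controls were lowest, EEF1D-1357 next and EEF1D-1893 highest. The difference over both hairpins was 0.47 (SE 0.14, limma adjusted p = 0.206). MANF, a secreted protein of the ER lumen that binds BiP, followed the same order at 5.50, 5.46 and 5.84, at 5.88, 5.89 and 6.10 and at 5.45 and 5.16, with EEF1D-1357 replicate 2 just above the higher control. It differed by 0.47 (SE 0.16, limma adjusted p = 0.233). SDF2L1, a partner of DNAJB11, differed by 0.53 (SE 0.24), but its controls stood at 1.95 and 1.09, and the first of these lay among the EEF1D-1357 arrays at 1.93, 1.86 and 2.18. Without control replicate 1 it differed by 0.96 and without control replicate 2 by 0.10. The rest of the group were HSP90B1 (GRP94, 0.29), HSPA13 (0.18) and HYOU1, the nucleotide exchange factor of BiP (0.15), none with groups apart over both hairpins.

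Within EEF1D-1357, replicate 3 stood above replicates 1 and 2 for 6 of these 7 genes and for 7 of 9 disulfide enzymes, and for 1 of 11 degradation genes. Over all genes replicate 3 was the highest of the 3 for 40.8% and the lowest for 40%. The median deviation of the 7 chaperone genes from their own 8-array means was -0.14, -0.18 and 0.18 for EEF1D-1357 replicates 1 to 3, 0.19, 0.14 and 0.40 for EEF1D-1893, and -0.06 and -0.40 for the controls. EEF1D was lowest on that same array, EEF1D-1357 replicate 3, at 5.11. Whether these are related was not tested.

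**Figure D2:**
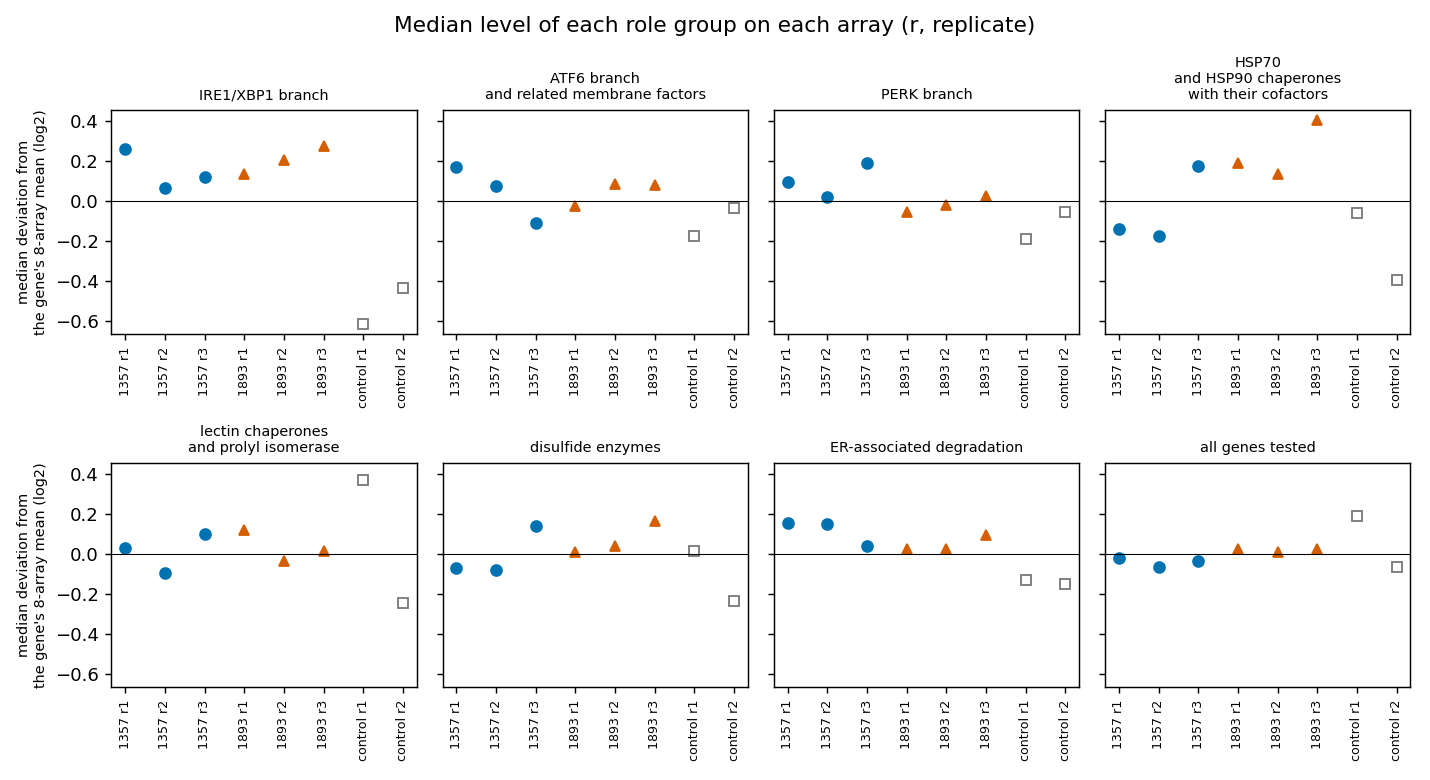
Median over the genes of each role of their deviation from the gene's own mean of 8 arrays (vertical axis, log2), for each array, with all genes tested in the last panel. The IRE1/XBP1 panel places both controls (open squares) lowest, at -0.61 and -0.44, while in the panel of lectin chaperones control replicate 1 is the highest array at 0.37.

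Of the lectin chaperones, the glucosyltransferase that works with them and the prolyl isomerase, 2 of 4 were higher, with a median difference of 0.02: the lectins CALR and CANX, which hold glycoproteins during folding, at 0.04 and 0.34. CALR (calreticulin) was at 6.79, 6.66 and 6.91 with EEF1D-1357, at 6.91, 6.76 and 6.84 with EEF1D-1893 and at 7.28 and 6.25 in the controls. All shRNA arrays lay between the controls, so the difference was 0.53 within slide 1 and -0.45 within slide 2. Its membrane-bound counterpart CANX (calnexin) was at 4.72, 4.62 and 4.53, at 4.84, 4.83 and 4.91 and at 4.18 and 4.62. The EEF1D-1893 arrays exceeded both controls, by 0.45 on average (SE 0.17), while EEF1D-1357 overlapped them. Over both hairpins CANX differed by 0.12 without control replicate 1 and by 0.56 without control replicate 2. With the slide block CANX was among 5 genes called higher with EEF1D-1893 (6.37% of all genes), beside DNAJB9, ERO1LB, SYVN1 and EDEM3, and 0 were called lower (8.06%). That fit sets EEF1D-1893 against control replicate 1 alone, which was the lower control for all 5 genes. Control replicate 1 minus control replicate 2 ran from -1.27 for ERO1LB to -0.40 for SYVN1 among them. With EEF1D-1357 the same fit called 0 of the 38 higher (0.0392% of all genes) or lower (0.188%). The folding sensor UGGT1, which reglucosylates unfinished glycoproteins, was lower by 0.18 on the log2 scale (SE 0.23), and PPIB, a prolyl isomerase, differed by -0.01 (SE 0.16).

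Of 9 enzymes that form or rearrange disulfide bonds, 6 were higher over both hairpins and the median difference was 0.22. The oxidase ERO1L, which recharges protein disulfide isomerase, was at 0.15, 0.45 and 0.36 with EEF1D-1357, at 0.62, 0.25 and 0.80 with EEF1D-1893 and at 0.07 and -0.26 in the controls. All shRNA arrays were above both controls, EEF1D-1357 replicate 1 by the least. The difference was 0.53 (SE 0.19, limma adjusted p = 0.241).

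Its paralog ERO1LB had the highest difference of the 38 genes, 0.80 (SE 0.34), near the floor of detection: it was well above background on 2 arrays of each hairpin and on 1 control. The controls at -6.38 and -5.10 were further apart than the hairpins' means of -4.72 and -5.15, and without control replicate 1 the difference was 0.17, without control replicate 2 1.44. PDIA6, a disulfide isomerase that also binds IRE1, was at 5.74, 5.39 and 6.10, at 5.68, 5.79 and 5.84 and at 5.69 and 5.17, so that both hairpins overlapped the higher control. Its difference was 0.33 (SE 0.22), and 0.07 without control replicate 2. The other isomerases were PDIA3 at 0.22, PDIA4 at -0.07, PDIA5 at -0.04 and P4HB at -0.10, and CRELD2 and the reductase DNAJC10 differed by 0.31 and 0.05.

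For ER-associated degradation, 10 of 11 genes were higher over both hairpins, with a median of 0.14. SYVN1 (HRD1), the membrane ubiquitin ligase that marks misfolded proteins, was at 3.09, 3.09 and 3.01 with EEF1D-1357, at 2.97, 3.03 and 3.14 with EEF1D-1893 and at 2.41 and 2.80 in the controls. All 6 shRNA arrays lay above both controls. The difference was 0.45 (SE 0.14, limma adjusted p = 0.215), 0.25 without control replicate 1 and 0.65 without control replicate 2. Its partner SEL1L, which holds the ligase in complex, differed by 0.07 (SE 0.12).

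DERL2, a derlin of the channel through which substrates leave the ER, was at 4.09, 3.97 and 3.98, at 4.15, 3.998 and 3.94 and at 3.80 and 3.54 in the same order of groups. Each shRNA array was above the higher control, and the difference was 0.35 (SE 0.13, limma adjusted p = 0.259), or 0.22 without control replicate 2. DERL1 and DERL3 differed by 0.11 and 0.02. EDEM3, which trims mannose from misfolded glycoproteins, stood at 2.54, 2.52 and 2.10, at 2.15, 2.28 and 2.22 and at 1.22 and 1.97. The shRNA arrays were above both controls, but control replicate 2 was close to EEF1D-1357 replicate 3. The difference was 0.71 (SE 0.22, limma adjusted p = 0.215), 0.33 without control replicate 1 and 1.09 without control replicate 2. HERPUD1, SELS and EDEM1 differed by 0.03, 0.26 and 0.20, and OS9, the lectin that reads trimmed glycans, by -0.12.

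Setting each hairpin against the control on its own slide left 23 of the 38 genes higher on both slides, against 22.2% of all genes, and 1, PDIA4, lower on both, against 30.9%. A further 9 were higher on slide 1 alone (31.1% of all genes) and 5 on slide 2 alone (15.7%). The medians within slides 1 and 2 were 0.28 and 0.16 for the 38 genes, and 0.03 and -0.20 for all genes. The genes higher on slide 1 alone included 3 of the 4 lectin chaperones with prolyl isomerase, CALR, UGGT1 and PPIB, and OS9, EDEM2 and DERL3. Each slide has a single control, so a slide and its control cannot be told apart.

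**Figure D3:**
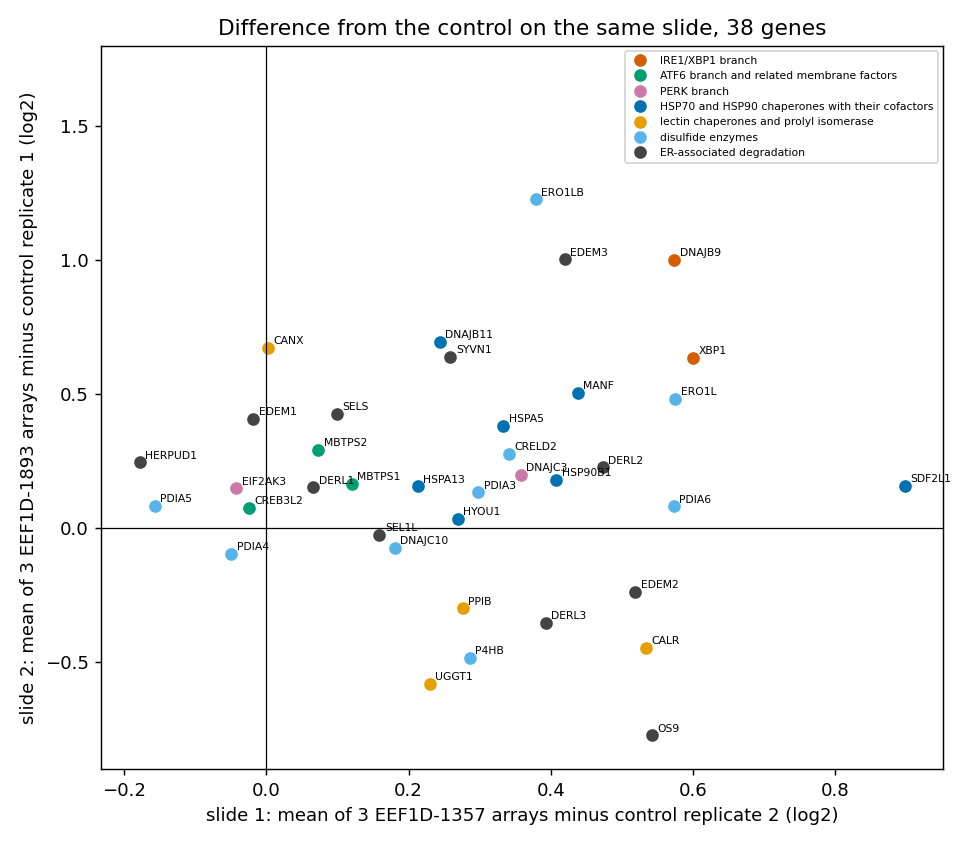
Each point is 1 of 38 genes, coloured by role: the mean of 3 EEF1D-1357 arrays minus control replicate 2 on slide 1 (horizontal axis, log2) against the mean of 3 EEF1D-1893 arrays minus control replicate 1 on slide 2 (vertical axis, log2). The upper right quadrant holds 23 genes, with XBP1 at 0.60 and 0.64 and DNAJB9 at 0.57 and 1.00, and OS9 lies lowest at 0.54 and -0.77.

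Most of these genes had several probes, 1 to 7 per gene and 107 in all. Of 103 above background on at least 2 arrays, 77 were higher over both hairpins. The share of all probes that were higher was not counted. Among the 26 genes with more than 1 such probe, 9 had all of them on the same side of 0: XBP1, DNAJB11, MANF, HSPA5, MBTPS1, ERO1L, DERL1, EDEM2 and SELS. Probes that overlap are not separate measurements. The probes of DNAJB11 lie 35 bases apart and overlap, as do some of XBP1 and DERL1. For HSPA5 the differences ran from 0.02 to 0.59 over 4 probes.

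The rest of these had probes on both sides of 0. EDEM3 was higher by 0.71 at its brightest probe, which is nearest the 3′ end by the strand in the files, and differed by 0.13, -0.05 and -0.08 at the probes upstream of it. Control replicate 1 minus control replicate 2 changed sign along the same probes, from -0.75 at the 3′ end to 0.07, 1.16 and 0.99. SYVN1 differed by 0.45 at its brightest, most 3′ probe and by 0.08 and -0.25 at dimmer ones, and the mean of its probes gave 0.09. These dimmer probes were near background, with mean levels of -5.06 and -6.0, and were above it on 6 and 2 arrays. In CALR and P4HB the order was the other way: P4HB differed by -0.10 and -0.44 at its first probes from the 3′ end and by 0.42 and 0.64 further upstream, and CALR by 0.04 at the brightest probe and 0.54 at the most 5′ one. Of 25 genes with at least 2 mapped probes, the difference was larger at the most 3′ than at the most 5′ probe in 11; 20 were higher at the most 3′ probe and 20 at the most 5′ one.

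**Figure D4:**
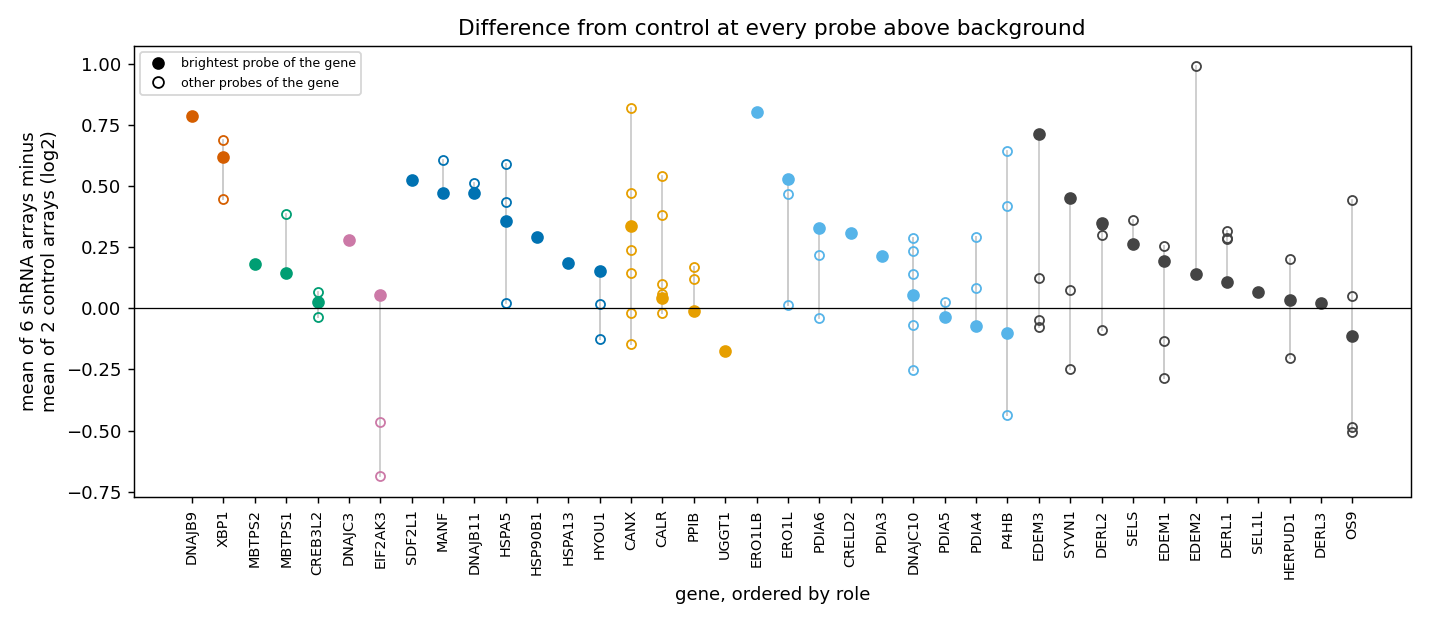
Mean of 6 shRNA arrays minus mean of 2 control arrays (vertical axis, log2) at every probe of each gene that was above background on at least 2 arrays, with genes by role along the horizontal axis. Filled points are the brightest probes, and open points the others joined by a line; EIF2AK3 has its brightest probe at 0.05 and the others at -0.47 and -0.69, while all 3 XBP1 probes lie between 0.45 and 0.69.

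Between the hairpins, 24 of 38 genes were lower with EEF1D-1357 than with EEF1D-1893, with a median of -0.04 (all genes -0.06, of which 58.6% were lower). None of the 38 was called (0% of all genes), nor with the slide block, which called 0.0157% of all genes higher and 0.0314% lower. At an unadjusted p under 0.05, 2 were higher with EEF1D-1357 (2.55% of all genes) and 1 was lower (3.88%). The arrays of the hairpins were fully apart for 3 genes higher with EEF1D-1357 (6.78%), namely EDEM2, DERL3 and OS9, and for 5 lower (15%), namely CREB3L2, HSPA13, DNAJB11, MANF and CANX. Scaled by the median, 20 of the 38 were higher with EEF1D-1357 in place of 14, and 52.8% of all genes in place of 41.4%.

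EDEM2, like EDEM3 a mannosidase-like protein of glycoprotein disposal, was at 4.21, 4.18 and 4.19 with EEF1D-1357, at 3.87, 3.64 and 3.55 with EEF1D-1893 and at 3.92 and 3.67 in the controls. The EEF1D-1357 arrays lay close together and above every other array, while EEF1D-1893 overlapped the controls. The hairpins differed by 0.51 (SE 0.14, limma adjusted p = 0.743). This held at the brightest probe alone. At the dimmer EDEM2 probe the arrays of both hairpins lay above both controls and overlapped each other. The differences from control there were 1.18 for EEF1D-1357 and 0.81 for EEF1D-1893. For DERL3, the levels were -1.60, -1.60 and -1.88 with EEF1D-1357, -2.20, -1.93 and -2.35 with EEF1D-1893 and -1.81 and -2.09 in the controls. The hairpins' means lay to either side of the control mean, both overlapped the controls, and they differed by 0.47 (SE 0.17). All 7 chaperones and cofactors had lower means with EEF1D-1357 than with EEF1D-1893, with a median of -0.33, from -0.47 for HSPA5 to -0.09 for HSP90B1. Fitted with the slide block, the median of these 7 became 0.06, so the direction of the group depended on how slides and controls were treated.

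Other genes of the pathway were counted from 4 further lists. In the arm downstream of PERK, 5 of 15 measured genes were higher over both hairpins, with a median of -0.23. ATF4, the transcription factor made when eIF2α is phosphorylated, was at 5.38, 5.42 and 5.59 with EEF1D-1357, at 5.55, 5.48 and 5.63 with EEF1D-1893 and at 6.30 and 5.70 in the controls. All 6 shRNA arrays lay below both controls, and the difference was -0.49 (SE 0.18, limma adjusted p = 0.247). The arrays give the level of the transcript, and neither ATF4 protein nor phosphorylated eIF2α was measured. EIF2S1, which encodes eIF2α, was above both controls on every shRNA array, by 0.64 (SE 0.16, limma adjusted p = 0.164). CEBPB, a partner of ATF4, differed by -0.37 (SE 0.16), and DDIT3 (CHOP), named although the rule did not select it, by 0.19 (SE 0.22).

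Of other ER folding factors, 16 of 32 were higher, with a median of 0.01; of other degradation factors 16 of 27, with 0.09; and of other stress regulators of the ER 14 of 20, with 0.17. None of the 94 measured genes on the 4 lists passed the adjusted threshold. With the slide block, 5 were called higher over both hairpins (2.53% of all genes): EIF2S1, TMX1, UBXN8, NGLY1 and SLC33A1, of which NGLY1, a glycanase, is named for that call, and 0 lower (2.84%). For EEF1D-1893 that fit called 1, 2, 4 and 4 higher and 2, 1, 2 and 1 lower in the order of the lists above (6.37% and 8.06% of all genes). The folding factors with the smallest p were the peroxidase GPX8 (0.74, SE 0.21), the thioredoxin-like TMX1 (0.60, SE 0.20) and ERP44 (0.45, SE 0.14), which retains oxidases in the early secretory pathway. Among degradation factors these were UBXN8 (0.69, SE 0.18), ERLEC1, a lectin like OS9 (0.52, SE 0.16), and the deubiquitinase YOD1 (1.01, SE 0.34). The acetyl-CoA transporter SLC33A1 (0.75, SE 0.22), the stress kinase MAP3K5 (0.39, SE 0.12) and NFYB (0.43, SE 0.14), a subunit of the factor that binds CCAAT boxes beside ATF6, led the regulators. All shRNA arrays were above both controls for 4 of the 32 folding factors, 5 of the 27 degradation factors and 7 of the 20 regulators (7.72% of all genes), and below both for 1 in each list (9.03%).

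Cell type markers were read on the same arrays, and none passed the adjusted threshold over both hairpins, while the slide block called OXTR and the plasma cell marker IRF4 lower (2.84% of all genes). The labels name BMECs and not a cell type among them. Of 10 luminal epithelial markers, 7 were lower (median -0.29). Their summed linear level was 493 to 568 on the shRNA arrays and 958 and 528 in the controls. With the slide block 5 of them were called lower for EEF1D-1893 (8.06% of all genes). Of 8 basal and myoepithelial markers tested, OXTR passed the filter on dim probes through the controls alone, so it had to come out lower; the other 7 were lower (median -0.41). The list's summed level was 152 to 324 on the shRNA arrays and 296 and 310 in the controls, and MYH11 was above background on 1 array. All 8 fibroblast markers were lower (median -0.51), 5 of them not above background on every array, with summed levels of 1.34 to 3.98 against 2.30 and 2.87, and PDGFRB was above background on 0 arrays. Of 6 leukocyte markers 5 were lower (median -0.13), with sums of 9.13 to 11.3 against 14.1 and 9.05, and CD3E and CD8A were above background on 0 arrays. Plasma cells secrete heavily and carry a high UPR; 4 of their 5 tested markers were lower (median -0.13), with sums of 21.7 to 25.4 on the shRNA arrays and 25.0 and 25.1 in the controls. Of 2 adipocyte markers tested, 2 were higher (median 0.61). Their sums were 0.041 to 0.53 on the shRNA arrays and 0.11 and 0.072 in the controls. Of 3 endothelial markers tested, 1 passed the filter on dim probes through the shRNA arrays alone, and the other 2 were lower (median -0.41). Over all genes tested, 42.8% were higher. The part of these markers in the values above was not tested.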

How the data were processed

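RNA of 8 samples was measured on single-colour Agilent arrays, labelled with Cy3. The deposited scanner files hold spot intensity values from Agilent Feature Extraction, version 10.7.3.1 per the file headers and 9.1 per the submitters' processing notes, background-subtracted and not normalized between arrays per the file headers. Other columns the authors deposited are 0 or 1 flags per spot for background, saturation and outliers. A further table deposited by the authors, in log2 values with a median of 7.55 on each array, served as an alternative.

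Control spots were dropped, as were 238 of the remaining 43653 probes because of outlier flags. The log2 processed intensity was reduced by each array's 75th percentile, and a probe was used if it exceeded background clearly on 2 arrays or more (30702 probes, 25724 with a gene name). The brightest probe stood for a gene, which gave 12740 genes. Group means were estimated for all genes from the 8 arrays together with limma 3.58.1 in R 4.3.3 (5 residual degrees of freedom, 2.12 added from other genes); tests were two-sided, adjusted by Benjamini-Hochberg over all genes, and called under 0.05. No p-value was adjusted over a list. The number of arrays limits the precision, and the code was tested on simulated data.

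Genes named by rule are the sensors, XBP1, HSPA5, any called gene, up to 3 of each role by smallest p and 3 between the hairpins. Every array's value is given for them, except for MBTPS2, UGGT1, SDF2L1 and ERO1LB, and for ERN1 and ATF6, which were not tested. Of each further list 3 genes are named, as values alone. The members and lists were chosen with earlier results of these data known. Alternatives were other scalings and normalizations, filters, probe summaries, RefSeq names (12783 genes), priors, slide or replicate number as a block, and each array left out. Replicate numbers did not pair arrays: correlations of deviations between arrays of the same number were -0.10 to 0.14.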

Additional observations from a re-analysis of the deposited data

How the results depend on the processing

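Over both hairpins against control, 24 of the 32 higher genes were higher under every alternative tried, and 0 of the 6 lower genes were lower under every one. Scaling by the median gave a median over the genes of 0.27, and 0.32 for EEF1D-1357. The number of genes called in the whole table was 2 with a trended prior over both hairpins and 2 for EEF1D-1357, 3 for EEF1D-1357 with the filter on all 8 arrays, and 1 between the hairpins with normexp and quantile normalization. With slide as a block it was 684 over both hairpins, 29 for EEF1D-1357, 1839 for EEF1D-1893 and 6 between the hairpins. For EEF1D-1357 alone, that block and leaving out control replicate 1 are the same comparison and not separate checks. For EEF1D-1893 alone, the same holds for leaving out control replicate 2. The same block called 3 and 5 of the folding and UPR genes over both hairpins and for EEF1D-1893, and gave medians of 0.16 for EEF1D-1893 and 0.052 between the hairpins. The causes were not tested.

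Leaving out each array in turn, genes called ranged from 0 to 2941 over both hairpins, from 0 to 2947 for EEF1D-1357 and from 0 to 1839 for EEF1D-1893. Folding and UPR genes called ranged from 0 to 5, 0 to 4 and 0 to 5. The highest counts came without control replicate 2. A fit without either control leaves 1 control array, so the spread between controls is not measured. No gene is therefore read as called from such a fit. For DNAJB9, CANX, ERO1LB, SYVN1 and EDEM3, the differences over both hairpins were 1.03, 0.56, 1.44, 0.65 and 1.09 without control replicate 2. Without control replicate 1 the differences of these genes were 0.55, 0.12, 0.17, 0.25 and 0.33. The median over the genes ranged from 0.14 to 0.26, from 0.11 to 0.28 and from 0.16 to 0.30. Over both hairpins, among the genes named by rule, the direction turned for EIF2AK3 at the mean of its probes (-0.37). It turned without control replicate 1 for EIF2AK3 (-0.18, and 0.29 without control replicate 2), MBTPS2 (-0.022, and 0.39) and UGGT1 (0.21, and -0.56), and without control replicate 2 for CREB3L2 (-0.090), CALR (-0.47, and 0.56 without control replicate 1) and DERL3 (-0.12). Of the other genes, PPIB (0.24), PDIA4 (0.02), P4HB (0.29), HERPUD1 (-0.11) and OS9 (0.28) turned without control replicate 1, which made 8 of 38 in all, and HYOU1 (-0.13) and DNAJC10 (-0.14) without control replicate 2, which made 5. Without EEF1D-1357 replicate 1 it turned for CREB3L2 (-0.03) and DERL3 (-0.0035), which also turned without EEF1D-1357 replicate 2 (-0.0035) and EEF1D-1893 replicate 2 (-0.04).

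With the replicate number as a block, which does not pair these arrays, 0 genes were called in any comparison, and the medians were 0.18 over both hairpins, 0.20 for EEF1D-1357, 0.23 for EEF1D-1893 and -0.04 between the hairpins. ERN1 and ERO1LB are limited by signal near background.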
